A study of Mus musculus with 18 samples.

Results

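Testes carrying a mutant Fshr allele with an intact luteinising hormone receptor gene were compared with wild type testes on Illumina bead arrays, which read each transcript with short probes fixed to beads. The comparison used 8 of the 18 arrays of the study, 4 labelled Fshr mutant and 4 labelled wild type. Probes were kept if their detection p-value, the deposited measure of signal over the negative control probes, was under 0.01 on at least 4 of these 8 arrays. This left 17171 of 45281 probes, which named 9946 genes. All animals were 12 weeks old and were FVB/N x C57/BL6 crosses, and whole testis RNA was measured. The column headers write the genotype of the Fshr mutant arrays as Fshr-CAM/WT and that of the wild type arrays as WT/WT. CAM is used in this field for a constitutively active mutant receptor, but neither labels nor headers spell it out, and they do not say how the allele is driven or in which cells. The other arrays carried a null allele of the luteinising hormone receptor gene, with the Fshr mutation in 5 (Fshr mutant/Lhr null) and without it in 5 (Lhr null). Nothing in the labels says whether arrays of a group came from separate animals, so the p-values rest on array-to-array spread, part of which may be technical.

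Fshr encodes the receptor for follicle stimulating hormone. In the testis it sits on Sertoli cells, the somatic cells of the seminiferous tubule that nurse the germ cells, and it signals mainly through the stimulatory G protein, cyclic AMP and protein kinase A. Luteinising hormone acts on Leydig cells between the tubules, which make testosterone, and spermatogenesis rests on both hormones.

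Fshr was far higher in the Fshr mutant testes, and few other probes passed the test. With limma and Benjamini-Hochberg adjustment over all 17171 probes, 2 probes were called at an adjusted p under 0.05, which is 0.0116% of those tested. Both were higher in the Fshr mutant, 1 for Fshr and 1 for Sult2a2, a sulfotransferase. None was lower. At an unadjusted p under 0.05 there were 981 probes, or 5.71%, with 572 higher and 409 lower. In place of further calls the data set narrow limits: 16776 probes, 97.7% of all, differed by less than 2-fold by a pair of one-sided moderated tests against that margin.

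The Fshr probe ILMN_1228881 read log2 levels of 8.59, 8.82, 8.51 and 8.74 in the Fshr mutant testes, against 5.71, 5.17, 5.89 and 5.65 in the wild type testes. The 2 groups were far apart and the 4 mutant arrays lay close together. The difference was 3.06 ± 0.15 (moderated SE, n = 4 each, 95% interval 2.72 to 3.40, limma adjusted p = 4.02e-05), an 8.34-fold change on the scale with offset, which understates changes of dim probes. As deposited, the mean bead intensities of this probe were 394.1 to 464.1 in the Fshr mutant and 63.5 to 139.4 in wild type. It was detected on all 4 mutant arrays and on 3 of 4 wild type arrays.

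The other Fshr probes did not share this difference in size. ILMN_2932141 read 5.39, 5.95, 5.65 and 5.62 in the Fshr mutant, against 6.05, 5.73, 6.40 and 5.87 in wild type, so the groups overlapped. Its difference was -0.36 ± 0.16 (95% interval -0.72 to 0.00, adjusted p = 0.855), and it was inside 2-fold by the test. ILMN_2736929 was detected on none of the 8 arrays and was not tested. It read 4.73 to 5.23 in the Fshr mutant and 4.35 to 4.49 in wild type. Which part of the transcript each probe reads was not analysed here, so the 2 tested probes, which disagree, are given side by side.

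**Figure D1:**
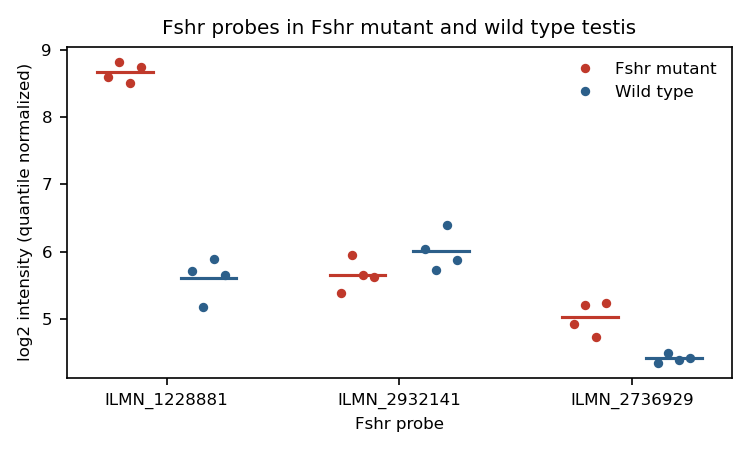
Log2 intensity of the 3 Fshr probes on each array, with the 4 Fshr mutant arrays left of the 4 wild type arrays for each probe and a bar at each group mean. Only ILMN_1228881 separates the groups widely, with means of 8.67 in the Fshr mutant and 5.61 in wild type; ILMN_2736929 was detected on no array.

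The same Fshr probe was read in the Lhr null background, with all 18 arrays normalized together. It stood at 8.84, 5.68, 8.61, 9.25 and 8.45 in the Fshr mutant/Lhr null arrays, against 7.57, 8.34, 7.997, 7.68 and 8.09 in the Lhr null arrays. Replicate 2 of the group labelled Fshr mutant/Lhr null read 5.68, inside the wild type range of 5.16 to 5.85 on that scale. In the fit of all 18 arrays, which takes in this array, the Fshr difference between Fshr mutant and wild type was 3.02 with an adjusted p of 0.0921, and without this array the adjusted p was 2.62e-07. The difference between Fshr mutant/Lhr null and Lhr null was 0.23 ± 0.45 with this array (adjusted p = 0.653) and 0.85 without it (adjusted p = 4.65e-04). ILMN_2932141 differed the other way in this background. It read 5.44 to 6.24 in the Fshr mutant/Lhr null arrays and 7.89 to 8.49 in the Lhr null arrays, a difference of -2.49 ± 0.17 (adjusted p = 1.8e-09), or -2.48 without that array. Its interaction with the background was -2.14 ± 0.25.

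Sult2a2, a member of a family of closely related hydroxysteroid sulfotransferases, was the second called gene. Its probe read 6.09, 6.14, 6.34 and 6.29 in the Fshr mutant, against 5.07, 4.63, 5.16 and 5.08 in wild type. The groups were separate, and the probe was detected on 4 of 4 mutant arrays and on 0 of 4 wild type arrays. It thus passed the filter only through the group where it was high. Because the wild type arrays give only a bound, the level was at least 1.698-fold higher in the Fshr mutant, with measured means of 6.22 and 4.99 and a fitted difference of 1.23 ± 0.13 (adjusted p = 0.0252). Whether this probe also reads other family members was not tested. The call of Sult2a2 ended in 11 of 24 other settings, with adjusted p up to 1.00, whereas that of Fshr ended in 1 of 24.

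Slc6a7, a proline transporter of neurons, and Gm6583, a predicted gene on chromosome 5, came next without being called. Slc6a7 read 6.14, 5.91, 6.26 and 6.28 in the Fshr mutant, where it was detected on all arrays, against 5.32, 4.79, 5.06 and 5.04 in wild type, where it was detected on none. It was at least 1.62-fold higher in the Fshr mutant (means 6.15 and 5.05, adjusted p = 0.0522). Gm6583 read 9.92, 10.10, 9.21 and 10.21 in the Fshr mutant, against 8.19, 8.30, 8.22 and 8.56 in wild type, a difference of 1.54 ± 0.20 (adjusted p = 0.0846). For both genes the groups were separate, and each passed the threshold in some other settings, Slc6a7 in 6 of 24 and Gm6583 in 7 of 25. A second Gm6583 probe, ILMN_2910876, differed by 0.40 ± 0.18 (adjusted p = 0.855).

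**Figure D2:**
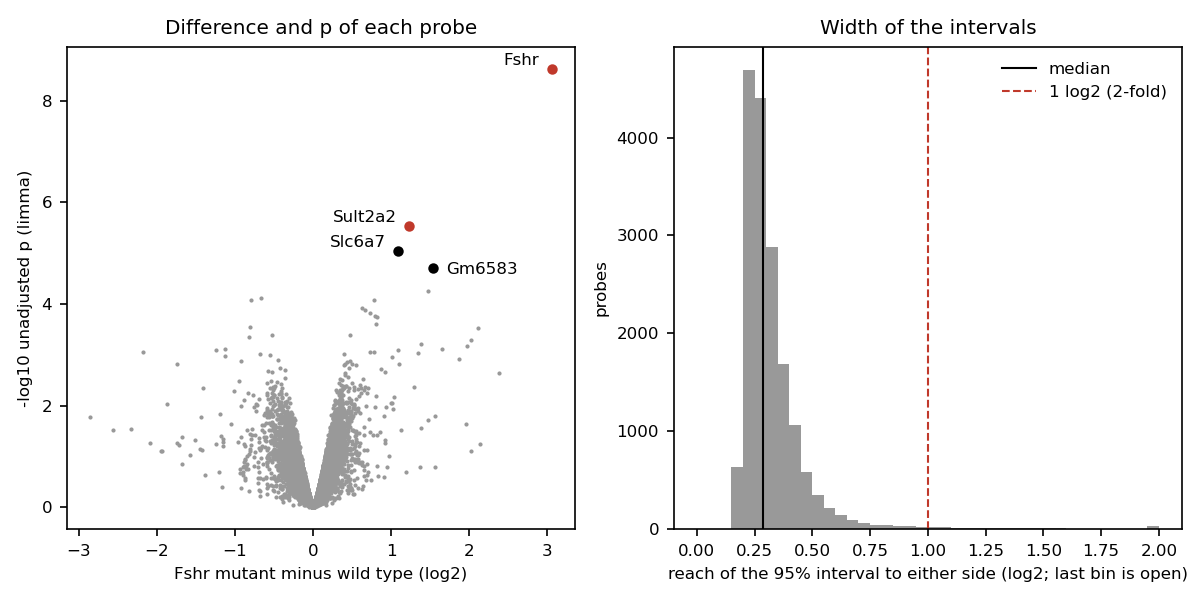
Left, each of the 17171 probes by its log2 difference, Fshr mutant minus wild type, and its unadjusted p on a -log10 axis, with the 2 called probes in red and the next 2 genes in black. Right, a histogram of the reach of the 95% intervals to either side in log2 units, with the median of 0.285 as a solid line and 1 log2 unit as a dashed line; nearly all probes lie left of the dashed line.

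Most transcripts were held to small limits on the scale with offset, which understates changes of dim probes. The 95% interval of the difference reached a median of 0.285 log2 units to either side of it, and 0.204 to 0.553 between the 5th and 95th percentile of probes. The median of the largest fold that an interval allowed was 1.32, and its 95th percentile was 1.81. The interval lay wholly inside 1.5-fold for 14225 probes (82.8%) and inside 2-fold for 16636 (96.9%). The bright probes were held tightest: the interval was inside 1.5-fold for 94.1% of the 4293 probes with the highest levels and for 70.6% of the 4293 with the lowest.

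The narrowest intervals among the probes with 1 gene symbol were those of Prdx4, Eif3l, Plaat5, Cyhr1, Naa35 and Cdc5l. Prdx4, a peroxiredoxin of the secretory pathway, read 13.15, 13.18, 13.15 and 13.13 in the Fshr mutant, against 13.21, 13.24, 13.24 and 13.20 in wild type, and its interval allowed at most 1.19-fold. Eif3l, a subunit of a translation initiation factor, read 10.81 to 10.87 in the Fshr mutant and 10.82 to 10.90 in wild type and was held to 1.13-fold. Plaat5, Cyhr1, Naa35 and Cdc5l were held to 1.16-fold to 1.20-fold.

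For a few probes 1 or 2 arrays of a group read near the floor, and the interval was wide. Lrrc57, a gene with leucine-rich repeats, read 12.55, 13.13, 13.24 and 4.85 in the Fshr mutant, against 12.50, 6.18, 12.58 and 12.69 in wild type. Both groups thus held 1 array far below the rest, and the interval ran from -4.55 to 4.46. Cbwd1 read 9.29, 10.52, 4.53 and 4.29 in the Fshr mutant, against 9.60, 4.78, 10.52 and 4.72 in wild type. Cstdc3, Mak16, Defb11 and Nnmt also held arrays near the floor in each group. These 6 are the widest intervals among the probes with 1 gene symbol, and 395 probes in all were not inside 2-fold by the test. Of the 395, 358 had groups that overlapped, while over all 17171 probes all but 573 (3.34%) did. Overlap was thus less common among the 395.

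Some large differences rested on arrays that disagreed within a group. Over all tested probes the 4 arrays of one group lay wholly apart from the 4 of the other for 573, or 3.34%, and among these the genes with the largest differences and an unadjusted p under 0.05 are described here. Rusc2, a protein that binds a small GTPase, read 9.18, 8.76, 9.50 and 8.97 in the Fshr mutant, against 6.61, 6.71, 8.34 and 6.25 in wild type. Wild type replicate 3 stood well above the other 3. The difference was 2.12 ± 0.39 (adjusted p = 0.315), or 2.58 without that array (adjusted p = 1.17e-03), and its second probe gave 2.02 ± 0.40 (adjusted p = 0.434). That array was chosen after its values were seen. Of the 8 fits that left out 1 array, only 1 called the first Rusc2 probe.

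Gtf2ird2, a gene of the general transcription factor 2I family on chromosome 5, read 9.10, 9.54, 8.68 and 9.18 in the Fshr mutant, against 8.56, 6.67, 6.90 and 6.46 in wild type. Wild type replicate 1 came close to the mutant arrays. The difference was 1.98 ± 0.41 (adjusted p = 0.513), or 2.45 without that array (adjusted p = 4.24e-03). Ccng2, a cyclin linked to cell cycle arrest, read 6.85, 6.51, 5.81 and 5.81 in the Fshr mutant and was detected on no wild type array, where it read 4.64 to 4.87. It was at least 1.73-fold higher in the Fshr mutant (means 6.24 and 4.77), with an adjusted p of 0.177. Cldn10, a claudin of tight junctions, read 7.42, 7.12, 7.56 and 6.06 in the Fshr mutant, against 6.01, 5.44, 5.63 and 5.68 in wild type. Its difference was 1.35 ± 0.29 (adjusted p = 0.513), or 1.68 without Fshr mutant replicate 4, which was the lowest mutant array (adjusted p = 0.0214). The arrays left out for Gtf2ird2 and Cldn10 were chosen after their values were seen. Each gene was called in only 1 of the 8 fits that left out 1 array.

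For the lower probes described next the mutant arrays were the more scattered ones. This was also so for Ccng2 and Cldn10 among the higher ones, with mutant SDs of 0.52 and 0.68 against 0.10 and 0.24 in wild type. Cptp, which carries ceramide-1-phosphate between membranes, read 9.39, 5.00, 5.08 and 9.52 in the Fshr mutant, against 9.52, 9.63, 10.40 and 9.66 in wild type. Probe ILMN_2436890 of Dhrsx, a short-chain dehydrogenase, showed the same split. It read 9.51, 7.25, 7.43 and 9.44 in the Fshr mutant against 9.74, 9.66, 10.24 and 9.72 in wild type. Fshr mutant replicates 2 and 3 were low for both probes while replicates 1 and 4 lay near the wild type arrays. The differences were -2.56 ± 1.01 for Cptp (adjusted p = 0.855) and -1.43 ± 0.50 for Dhrsx (adjusted p = 0.831), and a second Cptp probe, ILMN_2939377, gave 0.38 ± 0.18 (adjusted p = 0.855). Dhrsx probe ILMN_2897020 gave -1.01 ± 0.28 (adjusted p = 0.831). Dhrsx probe ILMN_1221451 did not share the split, with means of 9.12 (SD 0.15) in the Fshr mutant and 9.39 (SD 0.13) in wild type. Its difference was -0.28 ± 0.11 (adjusted p = 0.855).

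Agt, which encodes angiotensinogen, read 6.92, 8.87, 5.50 and 8.01 in the Fshr mutant, against 9.43, 8.95, 9.46 and 8.95 in wild type. Pgbd5, a gene derived from a transposase, read 7.03, 7.59, 6.62 and 7.73 in the Fshr mutant, against 8.21, 8.23, 8.86 and 8.20 in wild type. The 4 mutant arrays fell in nearly the same order for both, with replicate 3 lowest. Only 1 tested gene lies between Pgbd5 and Agt on chromosome 8 in the RefSeq annotation of GRCm38.p6. The differences were -1.87 ± 0.58 for Agt (adjusted p = 0.831) and -1.13 ± 0.25 for Pgbd5 (adjusted p = 0.538).

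Rpe, an enzyme of the pentose phosphate pathway, read 5.61, 5.94, 7.73 and 5.68 in the Fshr mutant, against 8.06, 7.98, 7.82 and 8.05 in wild type. Replicate 3 of the Fshr mutant lay just under the wild type arrays. The difference was -1.74 ± 0.40 (adjusted p = 0.593), or -2.23 without that array (adjusted p = 1.28e-04). That array was chosen after its values were seen, and only 1 of the 8 fits that left out 1 array called Rpe. Probe ILMN_2595822 of Dapp1, an adaptor of B cell signalling, was detected on 0 of 4 mutant arrays and on 4 of 4 wild type arrays, with 4.33 to 5.53 in the Fshr mutant and 5.72 to 6.45 in wild type. It was at least 1.60-fold lower in the Fshr mutant (means 4.89 and 6.13, adjusted p = 0.513). The other Dapp1 probe, ILMN_1253354, was detected on 2 of 4 mutant arrays and on 4 of 4 wild type arrays, with means of 6.47 (SD 1.98) and 8.21 (SD 0.54) and a difference of -1.74 ± 0.80 (adjusted p = 0.855). Grb7, an adaptor of receptor tyrosine kinases, read 5.86 to 7.10 in the Fshr mutant and 7.22 to 7.75 in wild type, a difference of -1.12 ± 0.23 (adjusted p = 0.513).

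**Figure D3:**
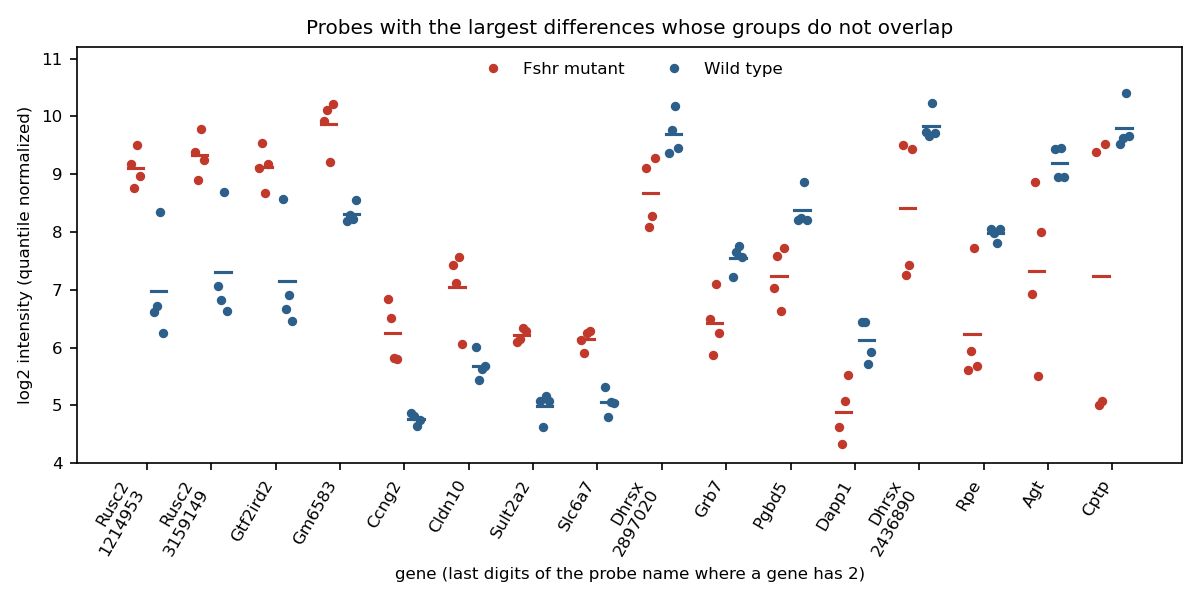
Log2 intensity on each array for the probes with the largest differences among those whose groups do not overlap, and for Slc6a7, with Fshr mutant arrays left of wild type arrays and a bar at each group mean. Tight clusters, as for Sult2a2, stand beside scattered ones, as for Cptp, where Fshr mutant arrays read 5.00 to 9.52.

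Presence and absence added little. Across the 8 arrays, 14507 probes were detected on every array and 25774 on none. A probe was detected on 4 of 4 arrays of one group and 0 of 4 of the other in 8 cases, 5 present in the Fshr mutant and 3 present in wild type. All 8 probes passed the filter through the arrays of 1 group alone. Besides probes of Sult2a2, Ccng2, Slc6a7 and Dapp1, these were the unnamed probe ILMN_1219184 and a probe of Zfp212, a zinc finger gene, in the Fshr mutant, and probes of Nkapl and of Slc20a1, a phosphate transporter, in wild type. For the last 4 the bounds were low, at least 1.03-fold, 1.11-fold, 1.15-fold and 1.15-fold in the order named. The test put each inside 2-fold, but it used readings under the detection limit in 1 group. It therefore sets no upper limit on these 4 folds. Other probes of 3 of these genes were detected in both groups. That of Nkapl and 2 of Zfp212 were detected on all 8 arrays, the remaining Zfp212 probe on 4 mutant and 3 wild type arrays, and the other Dapp1 probe on 2 mutant and 4 wild type arrays.

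Genes of chromosome 5 held a larger share of low p-values than those of other chromosomes. Of the 991 tested probes whose gene lies there, 11.5% had an unadjusted p under 0.05, against 5.22% of the 13518 probes on other chromosomes. The other 19 chromosomes with at least 100 probes lay between 4.14% and 6.23%. Chromosome 5 held 6.83% of the probes with a chromosome but 15 of the 30 with the smallest p. This pattern was seen in the values and has no test here.

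Within chromosome 5 the low p-values were uneven. With its tested genes cut into 4 equal stretches in map order, the shares were 4.67%, 18.8%, 9.92% and 13.2%, and the highest, between Stx18 and Tmem175, held Ccng2 and the genes that follow. Atp10d, a phospholipid flippase, averaged 7.504 ± 0.13 in the Fshr mutant and 8.16 ± 0.10 in wild type (SD, n = 4 each, difference -0.66, adjusted p = 0.177). Parm1, an androgen-regulated mucin-like protein, averaged 6.41 ± 0.16 in the Fshr mutant and 7.20 ± 0.19 in wild type. Sdad1, a protein of the nucleolus, averaged 8.73 ± 0.22 in the Fshr mutant and 7.95 ± 0.09 in wild type. Klb, the co-receptor beta-klotho, averaged 6.16 ± 1.05 in the Fshr mutant and 8.33 ± 0.52 in wild type, and Zfp951, a zinc finger gene, averaged 6.71 ± 0.38 in the Fshr mutant and 5.05 ± 0.78 in wild type. None of these was called, and genes higher and genes lower in the Fshr mutant stood side by side. Over the whole chromosome, 74 probes with an unadjusted p under 0.05 were higher and 40 lower, against 572 and 409 over all probes. Fshr itself lies on chromosome 17.

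**Figure D4:**
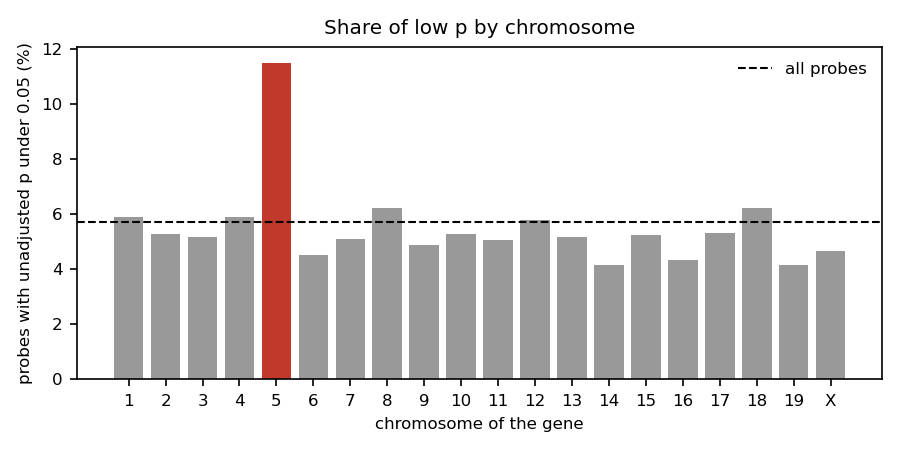
Percentage of tested probes with an unadjusted p under 0.05 by chromosome of the gene, for chromosomes with at least 100 tested probes; the dashed line is the share over all probes, 5.71%. Chromosome 5, in red, stands at 11.5% and the others between 4.14% and 6.23%.

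The genes that follow Fshr in its signalling path were described from a list of receptor, G protein, cyclic AMP and protein kinase A genes. Of its 29 members 20 were tested, 1 was called (Fshr) and the other 19 were inside 2-fold. The list median was 0.04, against 0.01 over all probes. Gnas, the stimulatory G protein subunit, read 7.38, 7.45, 7.51 and 7.49 in the Fshr mutant, against 7.49, 7.89, 7.72 and 7.46 in wild type, and its interval of -0.43 to 0.07 allowed at most 1.35-fold. Prkaca, the catalytic subunit of protein kinase A, read 10.32 to 10.38 in the Fshr mutant and 10.34 to 10.60 in wild type and was held to 1.23-fold. Adenylyl cyclase Adcy6 differed by 0.32 (interval 0.03 to 0.61, adjusted p = 0.855), and the receptor kinase Grk5 by 0.35 (interval -0.11 to 0.82).

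Of 20 early genes that cyclic AMP is known to induce 9 were tested, none was called and all 9 were inside 2-fold, with a median of 0.05. Egr1, an immediate early transcription factor, read 8.40, 8.65, 8.22 and 7.72 in the Fshr mutant, against 9.04, 8.93, 8.55 and 8.80 in wild type, a difference of -0.58 ± 0.19 (adjusted p = 0.831). Its groups overlapped slightly. Junb differed by 0.11 (interval -0.20 to 0.42), Per1 by -0.02 (interval -0.28 to 0.24) and Fos, near the detection limit, by -0.19 (interval -0.98 to 0.60).

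Sertoli cell genes linked to follicle stimulating hormone came closest to separating in Inha. This subunit of inhibin, the hormone by which Sertoli cells restrain the pituitary, read 8.34, 8.66, 8.41 and 8.69 in the Fshr mutant, against 8.19, 8.30, 7.97 and 8.13 in wild type. The groups did not overlap, yet the difference of 0.38 ± 0.12 (interval 0.12 to 0.64, adjusted p = 0.831) was inside 2-fold. Shbg, the androgen binding protein of Sertoli cells, read 6.50 to 6.93 in the Fshr mutant and 6.47 to 6.94 in wild type and was held to 1.27-fold. Trf, transferrin, was held to 1.24-fold and Aldh1a1, a retinal dehydrogenase, to 1.55-fold. All 13 tested members of the 25 listed were inside 2-fold and none was called, and the list median was -0.03.

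Of 27 Sertoli cell markers 19 were tested and 17 were inside 2-fold, with none called and a median of -0.01. Sox9, the transcription factor that sets Sertoli cell fate, read 9.81 to 10.15 in the Fshr mutant and 9.95 to 10.22 in wild type, and its interval allowed at most 1.26-fold. Mro, a gene of the developing and adult testis, averaged 6.73 in the Fshr mutant and 7.50 in wild type, a difference of -0.77 ± 0.22 without overlap (adjusted p = 0.831). Cst9, a cystatin, had an interval of -0.75 to 1.697. Among 11 tested androgen-dependent Sertoli genes, all inside 2-fold, none called and with a median of 0.03, Rhox5, a homeobox gene under androgen control, read 9.19 to 9.52 in the Fshr mutant and 9.06 to 9.43 in wild type and was held to 1.23-fold. Eppin, a protease inhibitor of sperm, was held to 1.20-fold.

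Most tested Leydig cell genes of steroid synthesis lay slightly lower in the Fshr mutant without passing the test. Cyp17a1, which makes androgen precursors, read 12.18, 11.02, 12.18 and 12.61 in the Fshr mutant, against 12.89, 12.63, 13.12 and 12.31 in wild type. Fshr mutant replicate 2 was the lowest array and the groups overlapped. The difference was -0.74 ± 0.31 (interval -1.42 to -0.05, adjusted p = 0.855), and leaving out 1 array at a time gave -0.94 to -0.41. Star, the cholesterol carrier of mitochondria, read 5.73, 4.78, 6.26 and 6.39 in the Fshr mutant, against 6.58, 5.86, 7.15 and 5.91 in wild type (difference -0.59, interval -1.44 to 0.26). Cyp11a1, the side chain cleavage enzyme, differed by -0.48 (interval -1.03 to 0.07) and Hsd17b3, which makes testosterone, by -0.31 (interval -0.88 to 0.25).

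Fshr mutant replicate 2 read lowest in all 4 of these genes. Over the 9 tested members of 16, none was called, 7 were inside 2-fold and the median was -0.14. The 4 genes above had the lowest differences of the 9. Cyb5a differed by -0.14, Cyb5r3 by -0.11, Scarb1 by -0.09, Tspo by -0.03 and Stard3 by 0.18. Array scores of the list, the mean level relative to wild type, overlapped, at -0.59 to -0.01 in the Fshr mutant and -0.22 to 0.33 in wild type. Without replicate 2 of the Fshr mutant the median was -0.15, while the differences were -0.41 for Cyp17a1, -0.25 for Star and -0.28 for Cyp11a1. In whole testis, fewer Leydig cells and less RNA per cell cannot be told apart. Macrophage and antigen presentation genes, which other interstitial cells express, had a median of the same size, -0.14 over 10 tested of 19 members, with none called. The array scores of the macrophage list were -0.25 to 0.03 in the Fshr mutant and -0.23 to 0.30 in wild type. The part of these cells in the steroid genes was not tested. Peritubular genes also had a median of -0.14, and cholesterol synthesis genes one of -0.12.

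The kallikrein genes of Leydig cells stood out by their spread, which was not tested. Klk1b21 read 10.09, 10.38, 10.14 and 10.37 in the Fshr mutant, against 9.69, 11.19, 12.25 and 7.84 in wild type. Klk1b27 read 9.32, 9.44, 9.43 and 9.62 in the Fshr mutant, against 8.74, 10.43, 11.59 and 6.96 in wild type. The mutant arrays sat close together in the middle of a wild type range of several log2 units, and the wild type arrays kept the same order for both genes. The differences were 0.00 ± 0.75 and 0.02 ± 0.79.

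Klk1b24 and Klk1b22 had the same form, with SDs of 0.11 and 0.28 in the Fshr mutant and 1.43 and 1.34 in wild type. Other family members did not: Klk1b26 (ILMN_1229177) had an SD of 0.26 in the Fshr mutant and 0.14 in wild type, and Klk1b8 0.05 and 0.14. Probes of such close relatives can read each other's transcripts, so these 4 genes may not be separate measurements. Insl3, the Leydig cell hormone of testis descent, read 13.46, 13.39, 13.41 and 13.04 in the Fshr mutant, against 13.37, 13.11, 13.50 and 13.24 in wild type, and was held to 1.24-fold. Of 22 other Leydig cell markers 15 were tested, none was called, 11 were inside 2-fold and the median was -0.07.

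None of the tested germ cell genes of the lists was called. All 29 tested genes of elongating spermatids were inside 2-fold, 27 of them with an interval inside 1.5-fold, and the median was -0.03. Over all probes 97.7% were inside 2-fold and 82.8% had an interval inside 1.5-fold. Prm1, the protamine that packs sperm DNA, read 14.64, 14.45, 14.48 and 14.56 in the Fshr mutant, against 14.70, 14.44, 13.97 and 14.68 in wild type, and was held to 1.36-fold. Tnp1 and Tnp2, the transition proteins, were held to 1.29-fold and 1.22-fold, and Odf1, of the outer dense fibres of the tail, to 1.20-fold.

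Round spermatid and acrosome genes were inside 2-fold in 25 of 26 tested, with a median of -0.03. Acrv1, an acrosomal protein, read 12.59 to 12.89 in the Fshr mutant and 12.64 to 12.99 in wild type and was held to 1.25-fold. The exception was Spata16, whose probe ILMN_3139235 had an interval of -0.44 to 2.33. All 23 tested spermatocyte genes and all 11 tested spermatogonial genes were inside 2-fold, with none called and medians of -0.03 and -0.09. Sycp1, of the synaptonemal complex, read 6.95, 7.46, 7.32 and 6.97 in the Fshr mutant, against 7.65, 7.70, 7.46 and 7.89 in wild type (difference -0.50 ± 0.14, adjusted p = 0.831). Brdt, a bromodomain protein of germ cells that also lies on chromosome 5, averaged 11.63 in the Fshr mutant and 12.07 in wild type without overlap (difference -0.44 ± 0.10, adjusted p = 0.582). Sall4, of undifferentiated spermatogonia, differed by -0.31 ± 0.11 (adjusted p = 0.855) and Kit, of differentiating ones, by -0.05 (interval -0.44 to 0.34).

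Junction genes of the blood-testis barrier, which Sertoli cells form around the germ cells, had 14 of 15 tested members inside 2-fold, with Cldn10 as the exception, and a median of -0.07. Cldn11, the claudin that seals the barrier, read 12.39 to 12.47 in the Fshr mutant and 12.38 to 12.71 in wild type and was held to 1.24-fold. Gja1, a gap junction protein, was held to 1.35-fold. The 5 tested genes of the retinoic acid pathway were all inside 2-fold (median 0.05), among them Aldh1a2, which makes retinoic acid, at 7.47 to 7.79 in the Fshr mutant and 7.39 to 7.77 in wild type.

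Cholesterol synthesis genes, which serve both membranes and steroids, were inside 2-fold in 12 of 13 tested (median -0.12), the exception being Nsdhl (ILMN_2594525), with an interval of -0.82 to 1.698. Cyp51, a demethylase of this pathway, read 10.30 to 10.46 in the Fshr mutant and 10.32 to 10.72 in wild type and was held to 1.31-fold, and Sqle, squalene epoxidase, to 1.27-fold. All 16 tested genes of the mitotic cell cycle were inside 2-fold (median 0.02). Rrm2, a subunit of ribonucleotide reductase, averaged 7.76 in the Fshr mutant and 7.24 in wild type (difference 0.52 ± 0.18, adjusted p = 0.831), and Top2a, a topoisomerase of dividing cells, was held to 1.23-fold.

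Other cell types and processes gave no call. All tested members were inside 2-fold for peritubular cells (9, median -0.14), matrix and fibroblasts (12, median -0.05), endothelium (9, median 0.08), epididymis (3, median 0.03), interferon response (7, median -0.06) and heat shock (12, median -0.03). Acta2, smooth muscle actin of the peritubular cells, read 10.96 to 11.36 in the Fshr mutant and 11.19 to 11.49 in wild type (difference -0.27, interval -0.52 to -0.01, adjusted p = 0.855). Hemoglobin genes scattered in both groups, and 2 of 4 tested red blood cell genes were inside 2-fold: Hbb-bs read 8.70, 8.96, 8.52 and 9.68 in the Fshr mutant, against 8.64, 8.61, 10.30 and 9.64 in wild type. All 12 tested ribosomal and housekeeping genes had an interval inside 1.5-fold (median -0.04), among them Actb with a difference of 0.00 (interval -0.23 to 0.23) and Ppia with -0.05 (interval -0.25 to 0.16).

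Across the 25 lists 299 genes were tested of 479 listed, and Fshr was the only one called. An unadjusted p under 0.05 was seen for 20 members, or 6.69%, against 5.71% of all probes, and 11 members, or 3.68%, had groups that did not overlap, against 3.34%. Of the members 284, or 94.98%, were inside 2-fold, against 97.7% of all probes. The interval was inside 1.5-fold for 218 members, or 72.9%, against 82.8%. List medians ran from -0.20 for red blood cell genes to 0.36 for lymphocyte genes, the last resting on Cd3d alone. Which of the small medians lay above 0 depended on the scaling, since without normalization between arrays the median of all probes was -0.17.

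**Figure D5:**
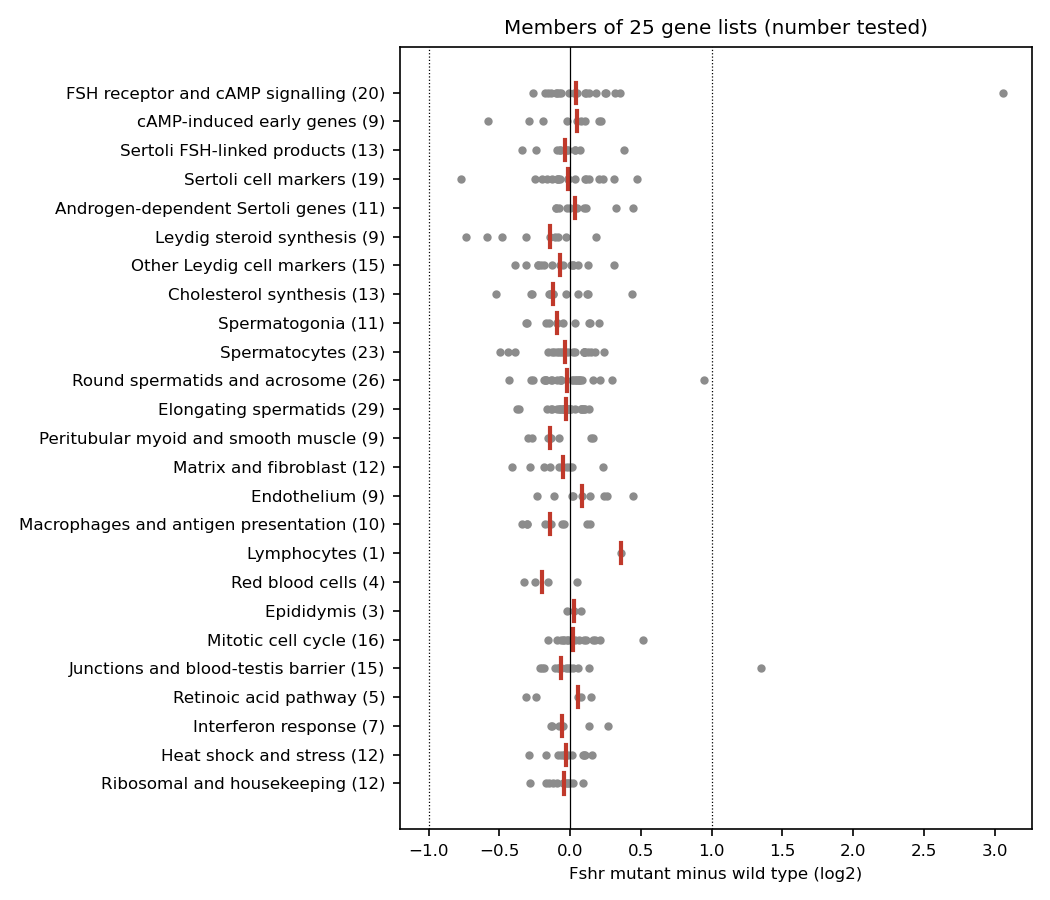
Log2 difference, Fshr mutant minus wild type, for each tested member (grey points) of the 25 gene lists, with the number tested in brackets and the list median as a red bar; dotted lines mark a 2-fold difference. Apart from Fshr at 3.06 and Cldn10 at 1.35, all members lie within the dotted lines.

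The effect of the Fshr mutation was also compared between the Lhr null and the intact background, as an interaction in a fit of all 18 arrays. It differed for 10191 probes, or 59.4%, and for 9912 once replicate 2 of the arrays labelled Fshr mutant/Lhr null, which has Fshr at a wild type level, was left out. The 8 highest and 8 lowest differences between Fshr mutant and wild type were taken among probes with 1 gene symbol, no overlap and an unadjusted p under 0.05. Of these 16 probes, 12 had the same sign between Fshr mutant/Lhr null and Lhr null, arrays that this comparison does not share. The share of equal signs over all probes was not counted, and Rusc2 and Dhrsx each gave 2 of the 16 probes. In the Lhr null background 3 of these 12 passed the test, all with the same sign. Over all tested probes 73.4% passed it there, in either direction. Without replicate 2 of the arrays labelled Fshr mutant/Lhr null, 5 of the 12 passed. The interaction uses the 8 arrays by which these 16 probes were chosen, so its values for them are a description. Gm6583 differed by 1.07 ± 0.25 in that background (adjusted p = 7.21e-04), Gtf2ird2 by 0.78 ± 0.29 (adjusted p = 0.0208) and Rpe by -1.69 ± 0.63 (adjusted p = 0.0229). Sult2a2 differed by 0.92 ± 0.41 (adjusted p = 0.0529), and its interaction of -0.29 ± 0.62 was not called (adjusted p = 0.703). Without that replicate Sult2a2 differed by 1.14 (adjusted p = 0.0234).

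Agt, Pgbd5 and Ccng2 were among the probes with the opposite sign. Agt was higher in Fshr mutant/Lhr null than in Lhr null by 1.92 ± 0.53 (adjusted p = 0.00338), with an interaction of 3.76 ± 0.80 (adjusted p = 6.26e-04). Pgbd5 was higher there by 1.29 ± 0.29 (adjusted p = 6.90e-04), with an interaction of 2.40 ± 0.44 (adjusted p = 1.75e-04). Ccng2 differed by -0.66 ± 0.36 in that background (adjusted p = 0.112), with an interaction of -2.12 ± 0.55 (adjusted p = 0.00305).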

How the data were processed

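Biotin-labelled total RNA of whole testis was read on Illumina bead arrays, summarised with GenomeStudio 1.7.0 per the submitters' processing notes. Per the file headers, the deposited table holds 4 values per array for its 45281 probes, namely the mean intensity over beads, the standard error of that signal, the count of beads and a detection p-value. The deposited intensity values are linear and unnormalized. The second deposited table holds intensity values processed by the authors, in the same rank order with array medians of 61.6 to 61.7, and served as an alternative. The sources used here do not give its method.

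The median deposited intensity was 56.3 to 64.2 on 7 arrays and 76.8 on wild type replicate 3. Between 15482 and 18063 probes were detected per array, a probe had a median of 40 to 43 beads, and the median standard error over beads was 4.31% to 5.57% of the intensity. Array correlations were 0.976 to 0.986 within the Fshr mutant, 0.979 to 0.989 within wild type and 0.974 to 0.986 between them. No 2 arrays held identical values. The number of arrays limits the precision.

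With limma 3.58.1 in R 4.3.3, intensities were normexp-corrected against the detection p-values (offset 16), quantile normalized over the 8 arrays and taken to log2. The fit used lmFit and eBayes on these 8 arrays. Adjusted p-values are Benjamini-Hochberg values over all kept probes. A probe counts as inside 2-fold if the larger p of the one-sided tests against -1 and 1 log2 units was under 0.05 after adjustment. Bounds set the bright group's mean against the lowest detected level of each dim array. Of all probes 34885 have 1 gene symbol, 18 several and 10378 none here. Symbols of 34807 were updated, and chromosomes taken, from the RefSeq gene table of GRCm38.p6. The brightest probe stands for a list gene. The fit of Fshr mutant against wild type was tested on simulated data with normal noise drawn separately for each value. It called 44.8% of 1.5-fold changes, 81.8% of 2-fold changes and 98.5% of 4-fold changes, and 4.71% of its calls were false. Shifts of whole arrays and single arrays near the floor were not simulated.

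The members and the 25 lists were chosen with earlier results of these data known. Genes named were all Fshr probes, the called ones, up to 8 highest and 8 lowest without overlap, the first 4 tested members of each list, the 6 narrowest and 6 widest intervals, and probes detected in 1 group only. Genes on chromosome 5, the second probes and further list members outside this rule were chosen after their values were seen. Replicate numbers appear in both groups. The deviations of same-numbered arrays from their group means correlated at only -0.07 to 0.07, so these arrays were not treated as pairs.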

Additional observations from a re-analysis of the deposited data

Results flagged for a closer look

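Within groups of 4 arrays, 308 groups of values were examined for 1 array far from the rest (Dixon's test of the gap). They were levels of the named probes, array scores of the 25 lists, and the number detected and median intensity per array. Past it were 18 (5.84%), all of named probes, where chance gives about 1 in 20. Some of these probes were named for their wide intervals, so that rate does not hold for them. In the Fshr mutant, replicate 4 read 4.85 for Lrrc57 against 12.55 to 13.24 in the others, 13.04 for Insl3 and 8.11 for Alas2. Replicate 3 of the Fshr mutant read 7.73 for Rpe, replicate 2 read 9.39 for Tex101 and 10.75 for Theg, and replicate 1 read 10.06 for Per1. In wild type, replicate 3 was the highest array for Cptp at 10.40, Dhrsx at 10.24, Pgbd5 at 8.86, Amhr2 at 11.59, Sall4 at 6.62, Ifitm3 at 8.95 and Actb at 13.33, and this array also had the highest median deposited intensity, 76.8 against 56.3 to 64.2 in the other 7. Replicate 2 of wild type read 6.18 for Lrrc57, 4.96 for Defb11 and 6.09 for Slc20a1, and replicate 1 read 6.53 for Cldn3.

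The effect of the Fshr mutation differed between the Lhr null and the intact background, by limma's interaction test, for 10191 probes, or 59.4% of those tested. Among the 16 probes with the largest differences without overlap of the groups, 7 were past the threshold: Fshr at -2.79, Gtf2ird2 at -1.16, Ccng2 at -2.12, Cldn10 at -0.86, Agt at 3.76, Pgbd5 at 2.40 and Grb7 at 1.07, in log2 units. The 16 were chosen by the very difference that the interaction subtracts, so these values are a description. All 7 run against the direction by which the probe was chosen. Leaving out replicate 2 of the arrays labelled Fshr mutant/Lhr null, the Fshr interaction was -2.17 (adjusted p = 9.01e-06), and that of Cldn10 was -0.77 and no longer past the threshold (adjusted p = 0.0867).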

How the results depend on the processing

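No called value of a named probe changed sign. Of the values of named probes under alternatives, 3063 kept their side of the threshold, 32 passed it newly and 12 lost it. The fit of 8 arrays called 2 probes. The count was 0 for probes detected on all 8 arrays (891 at an unadjusted p under 0.05), which leaves Fshr and Sult2a2 untested. It was also 0 in limma's fit of all 18 arrays (715 at an unadjusted p under 0.05). It was 1 with no filter, with median scaling, with an offset of 1 (chosen after seeing the data) and with the replicate block, where Fshr was called and Sult2a2 had an adjusted p of 0.111. It was 4 with 1 probe per gene, 5 with a robust trend in eBayes, and 49 without normalization between arrays, 16 higher and 33 lower, where the median of all probes shifted to -0.17. Leaving out 1 array at a time gave 1 to 11: 11 without wild type replicate 3, 7 without Fshr mutant replicate 3, 5 without Fshr mutant replicate 2, 4 without wild type replicate 1, and 1 without Fshr mutant replicate 1 or wild type replicate 4. The number inside 2-fold, 16776, was 44784 with no filter and 9742 with 1 probe per gene, since the number tested changed, 16666 to 16748 with 1 array left out, and 15067 at a margin of 1.5-fold. It was 16299 with an offset of 1, 16992 with an offset of 50 and 16403 without normalization between arrays. Probes detected in 1 group only numbered 8, 19 at a detection p under 0.05 and 14 to 51 with 1 array left out, the most without wild type replicate 2. The interaction count was 9624 to 10564 with 1 array left out. On chromosome 5 the share with an unadjusted p under 0.05 was 8.88% to 12.7% with 1 array left out and 2.83% without normalization, against 1.89% on the other chromosomes. The cause of these changes was not tested. A block for slide was not run, since the files name no slide.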
